A study of Mus musculus with 6 samples.

Results

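Red cells make their ATP by glycolysis, the conversion of glucose to lactate in the cytosol, since they lose their mitochondria as they mature. The transcripts of 10 genes of this pathway were examined in differentiating mouse erythroblasts: the hexokinases Hk1 and Hk2, the phosphoglucose isomerase Gpi1, the phosphofructokinase subunits Pfkl and Pfkm, the aldolase Aldoa, the phosphoglycerate kinase Pgk1, the bisphosphoglycerate mutase Bpgm, the pyruvate kinase gene Pklr and the lactate dehydrogenase subunit Ldha. They were chosen by symbol as glycolytic enzymes that include the red cell forms, and all 10 were found among the 17463 genes in the files. Several steps are encoded by paralogs, and the mature red cell relies on particular ones, such as the product of Pklr at the pyruvate kinase step. Bpgm diverts an intermediate of glycolysis into 2,3-bisphosphoglycerate, which lowers the oxygen affinity of haemoglobin, and deficiency of Pklr, Gpi1, Hk1 or Pgk1 causes haemolytic anaemia.

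The cells were C57BL/6J fetal liver erythroblasts that lacked TER119, a surface protein gained in erythroid maturation, and were kept for 30 h in culture with erythropoietin (Epo), either with 40 µM cholesterol or without added cholesterol. The TER119+ cells were then sorted for RNA-seq, with 3 control samples (called untreated in the labels and vehicle control in the study) and 3 cholesterol samples, numbered 1 to 3 in each group. The sources used here do not say what the numbers stand for. The study speaks of independent experiments for data shown as mean ± SD, but does not say for these libraries whether they came from separate litters or cultures, so p-values measure the spread between these samples only. The comparison asks how the transcriptome of differentiating erythroblasts responds to excess cholesterol.

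Total counts lay between 19826849 and 20061724, and 3 counts corresponded to about 0.15 CPM, a unit that puts counts on one library size. All 10 erythroblast markers examined were present, with a summed level between 97198 and 146243 CPM. Same-numbered samples resembled each other in pairs 1 and 3 and less so in pair 2. The first principal component, with 70.3% of the variance, set apart the samples numbered 3. On it, cholesterol sample 2 lay nearer control sample 1 than control sample 2. Summed markers of neutrophils were 73.8, 273 and 735 CPM without cholesterol (samples 1 to 3) and 45.2, 118 and 308 CPM with it, and those of macrophages were 18.9, 43.0 and 132 CPM and 14.2, 20.4 and 62.4 CPM. Mast cell and basophil markers summed to 3.18, 7.73 and 31.9 CPM in the control samples and 1.28, 2.47 and 5.27 CPM in the cholesterol samples, with Tpsb2 at 0 in all of them. Hepatocyte markers summed to 152, 125 and 362 CPM in the control samples and 264, 86.7 and 303 CPM in the cholesterol samples, and megakaryocyte markers to 83.0 to 109 CPM. The part of these cells in the results below was not tested, and in bulk RNA fewer cells of a type and less RNA per cell cannot be told apart.

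With cholesterol, 0 of the 10 transcripts passed an adjusted p of 0.05 when the 6 samples were compared by treatment alone (0.00887% of all genes passed), and 1, Pfkm, rose when same-numbered samples were compared (1.65% of all genes rose), a call that was lost without the samples numbered 2 or 3 and in DESeq2 and limma. Differences between sample numbers were larger for most of the 10. In the samples numbered 3, with or without cholesterol, 8 of the 10 transcripts were lower than in the samples numbered 1 (22.9% of all genes were), Ldha and Pklr by about 3-fold, whereas Bpgm was 2.11-fold higher. Gpi1, Aldoa, Pgk1 and Ldha were higher with cholesterol in pair 1 and lower with cholesterol in pair 3.

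On the FPKM scale, which corrects for gene length and so allows genes to be compared, Aldoa had the highest level of the 10 at 365 ± 164 (SD, n = 6). Pklr followed at 182 ± 82.4, Ldha at 158 ± 75.1 and Hk1 at 151 ± 14.8 FPKM (SD, n = 6). Gpi1 lay at 86.5 ± 31.4, Pgk1 at 79.6 ± 31.9, Pfkl at 46.6 ± 12.2 and Bpgm at 42.6 ± 14.4 FPKM. Pfkm was lower at 21.7 ± 4.86 FPKM, and Hk2 was lowest at 0.828 ± 0.234 FPKM. Neighbours in this order overlapped across the samples, apart from Hk1 with Gpi1, Bpgm with Pfkm and Pfkm with Hk2. By mean FPKM Aldoa stood at the 98.4th percentile of the 11277 genes tested and Hk2 at the 17.2nd. The order differed between samples. In control sample 1 Pklr (264 FPKM) was above Hk1 (169 FPKM) and Pgk1 (96.8 FPKM) above Bpgm (30.7 FPKM), whereas in control sample 3 Hk1 (133 FPKM) was above Pklr (78.9 FPKM) and Bpgm (55.4 FPKM) above Pgk1 (45.3 FPKM).

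**Figure D1:**
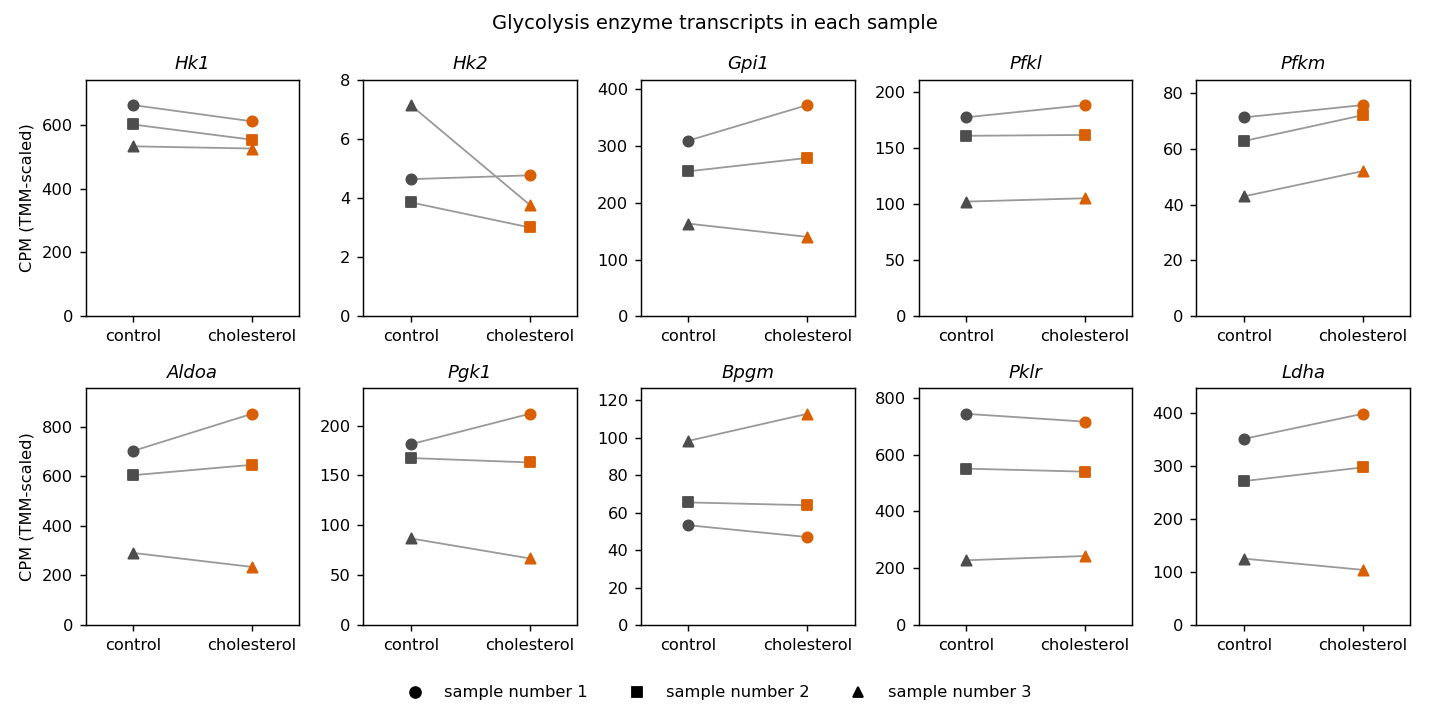
CPM (y axis, linear from 0, scaled between libraries by the TMM method) of the 10 transcripts in the control samples (grey) and the cholesterol samples (orange), with a line joining the samples of one number (symbols). For Pklr, the samples numbered 3 lie at 228 and 243 CPM and all others at 540 CPM or above, while for Bpgm the samples numbered 3 are the highest, and in no panel do the control and cholesterol samples separate.

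Hexokinase phosphorylates glucose and traps it in the cell. Hk1 (minus strand, chr10:62268855-62379920, GRCm38.p6) is the form that mature red cells use. Its CPM were 662, 601 and 532 without cholesterol (samples 1 to 3) and 611, 553 and 526 with it. The cholesterol sample was lower in each pair, as for 20.1% of all genes, but the groups overlapped, and the difference was small beside the spread between numbers. The log2 fold change of Hk1 was −0.09 (95% interval −0.33 to 0.16, adjusted p = 1.0 in edgeR's quasi-likelihood test). Once the replicate number entered the model as a block, it was −0.08 (95% interval −0.17 to −5.6e-05, adjusted p = 0.254). Hk2 (minus strand, chr6:82725025-82774454), the inducible hexokinase of muscle and proliferating cells, was near the lower end of the genes tested. Its CPM were 4.65, 3.86 and 7.16 without cholesterol (samples 1 to 3) and 4.78, 3.01 and 3.78 with it. The highest value was in control sample 3, the sample with the highest neutrophil and macrophage marker levels. Cholesterol sample 3 came next in these markers, but its Hk2 level was below those of control sample 1 and cholesterol sample 1. In those samples the markers were lowest, and the part of these cells was not tested. Hk2 had a log2 fold change of −0.44 without the block (95% interval −1.16 to 0.29, adjusted p = 1.0 in edgeR) and −0.42 with it (adjusted p = 0.212). Its size rested on the samples numbered 3, since with the block it was −0.14 without them and −0.67 without those numbered 1 (adjusted p = 0.836 and 0.063).

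Gpi1 (minus strand, chr7:34201327-34230336) turns glucose-6-phosphate into fructose-6-phosphate. Its CPM were 310, 256 and 163 without cholesterol (samples 1 to 3) and 372, 279 and 140 with it. The samples numbered 3 were lowest in both groups, and cholesterol went with a higher value in pairs 1 and 2 and a lower one in pair 3. Phosphofructokinase, the main point of control of glycolysis, is in red cells a mixed tetramer of liver and muscle subunits. Pfkl (minus strand, chr10:77986947-78009807) had 177, 161 and 102 CPM without cholesterol (samples 1 to 3) and 188, 161 and 105 CPM with it. Pfkm (plus strand, chr15:98092589-98132447) had 71.2, 62.7 and 42.9 CPM without cholesterol (samples 1 to 3) and 75.7, 72.0 and 52.0 CPM with it. Both subunits were higher with cholesterol in all 3 pairs, as were 19.9% of all genes tested, although for Pfkl the step in pair 2 was only 0.01 on the log2 scale.
Pfkm had a log2 fold change of 0.17 (95% interval −0.36 to 0.71, adjusted p = 1.0 in edgeR) without the block and of 0.18 (95% interval 0.07 to 0.29, adjusted p = 0.0422) with it, a rise of 0.09, 0.20 and 0.28 on the log2 scale in pairs 1 to 3. This call did not hold without both samples numbered 3 (log2 fold change 0.14, adjusted p = 0.143) or without both numbered 2 (0.18, adjusted p = 0.198), and neither DESeq2 (adjusted p = 0.441) nor limma (adjusted p = 0.131) made it with the block. Pfkl had a log2 fold change of 0.05 with and without the block (95% interval −0.05 to 0.14 with it, adjusted p = 0.641).

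Aldoa (minus strand, chr7:126795234-126800994) splits fructose-1,6-bisphosphate into a pair of triose phosphates. Its CPM were 702, 604 and 291 without cholesterol (samples 1 to 3) and 851, 646 and 234 with it. The highest and the lowest value of the 6 both came from cholesterol samples. Pgk1 (plus strand, chrX:106187100-106203699) makes ATP from 1,3-bisphosphoglycerate, the same intermediate that Bpgm uses. Its CPM were 181, 167 and 86.8 without cholesterol (samples 1 to 3) and 212, 163 and 66.8 with it. Ldha (plus strand, chr7:46842274-46855627) reduces pyruvate to lactate and regenerates NAD+. Its CPM were 351, 272 and 125 without cholesterol (samples 1 to 3) and 399, 297 and 104 with it. In each of these 3 genes the samples numbered 3 were the lowest, and the gap between sample numbers was wider with cholesterol than without.
With the block, the log2 fold changes of Aldoa, Pgk1 and Ldha were 0.03, −0.05 and 0.03, with 95% intervals of −0.52 to 0.57, −0.50 to 0.41 and −0.24 to 0.29 (adjusted p = 0.953, 0.918 and 0.922 in edgeR). Gpi1 had 0.07 (95% interval −0.24 to 0.37, adjusted p = 0.827). Read counts of Gpi1, Pfkl, Pfkm and Aldoa were estimates that were not whole in every sample, while those of the other 6 transcripts were whole. Aldoa, Pgk1 and Ldha have processed pseudogenes with near-identical sequence, so their levels are uncertain to the extent that reads were assigned to such copies.

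The 250 bases before and 50 after the annotated starts of Pgk1 and Ldha are shown because these genes were low together in the samples numbered 3 and hold the core of the hypoxia response element, ACGTG, which is in capitals where it occurs on either strand (CACGT on the other). They are on the plus strand of GRCm38.p6 and come from RefSeq, at chrX:106186850-106187149 for Pgk1 and chr7:46845554-46845853 for the first of 2 Ldha windows.
Pgk1: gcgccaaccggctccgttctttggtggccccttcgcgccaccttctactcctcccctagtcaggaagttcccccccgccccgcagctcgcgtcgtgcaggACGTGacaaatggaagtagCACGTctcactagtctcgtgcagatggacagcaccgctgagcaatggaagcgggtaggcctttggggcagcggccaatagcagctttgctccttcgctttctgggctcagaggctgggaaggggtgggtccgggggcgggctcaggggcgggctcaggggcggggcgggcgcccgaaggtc
Ldha: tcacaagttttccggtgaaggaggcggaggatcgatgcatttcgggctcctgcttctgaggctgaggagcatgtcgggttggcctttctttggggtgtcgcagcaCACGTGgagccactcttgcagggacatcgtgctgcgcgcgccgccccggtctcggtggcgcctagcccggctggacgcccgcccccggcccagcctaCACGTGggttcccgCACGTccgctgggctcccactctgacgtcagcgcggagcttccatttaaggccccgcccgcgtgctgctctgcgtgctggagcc
The motif occurs at 2 places in the Pgk1 window and 3 in the Ldha window, in the latter also as CACGTG, the E-box to which MYC and USF factors bind. Of the 18 windows of the 10 genes, some of which overlap, 8 held ACGTG, against 19.6% of all 32851 windows of this length. The windows of Gpi1, Pfkl and Pklr, which were also low in the samples numbered 3, held none, and that of Hk2, which was not lower there, held 2 places. Among other glycolysis genes, 8 of 24 windows held it.

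Bpgm (plus strand, chr6:34476356-34505136) was the one transcript of the 10 that was called higher in the samples numbered 3. Its CPM were 53.3, 65.5 and 98.4 without cholesterol (samples 1 to 3) and 47.0, 64.0 and 113 with it. The samples numbered 3 were the highest in both groups and those numbered 1 the lowest, and the groups overlapped fully. The log2 fold change with cholesterol was 0.04 without the block and 0.01 with it (95% interval −0.13 to 0.14, adjusted p = 0.976 in edgeR). Since Bpgm and Pgk1 compete for one substrate, the ratio of their FPKM was computed, a measure chosen after the values were seen. It was 0.317, 0.424 and 1.22 without cholesterol (samples 1 to 3) and 0.235, 0.426 and 1.80 with it. In the samples numbered 3 alone, Bpgm exceeded Pgk1. The window around its start, chr6:34476106-34476405, is shown beside those above because Bpgm differed in the other direction between sample numbers. It held none of the 3 motifs searched, namely ACGTG, the GATA factor motif AGATAA and CACCC, to which KLF1 binds.
Bpgm: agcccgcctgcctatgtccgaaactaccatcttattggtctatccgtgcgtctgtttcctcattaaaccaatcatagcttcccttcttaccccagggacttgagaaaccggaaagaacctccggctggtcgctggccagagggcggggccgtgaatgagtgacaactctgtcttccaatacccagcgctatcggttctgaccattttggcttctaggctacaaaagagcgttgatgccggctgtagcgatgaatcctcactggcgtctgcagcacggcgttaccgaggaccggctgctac
AGATAA was found on either strand in 11.2% and CACCC in 57.5% of all windows, and in 4 and 12 of the 18 windows of the 10 genes. The windows of Gpi1 and Pfkl, 1 of those of Hk1 and the downstream one of Pklr also held none of the 3, so this did not set Bpgm apart. A match or its absence describes the letters of these windows only.

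Pklr (plus strand, chr3:89136122-89146815) encodes both the red cell and the liver pyruvate kinase, from alternative first exons. The upstream start gives the red cell form and the downstream one the liver form. Its CPM were 744, 551 and 228 without cholesterol (samples 1 to 3) and 716, 540 and 243 with it. Values within a pair were close, and the samples numbered 3 stood far below the others in both groups. Pklr had a log2 fold change of −0.02 (95% interval −1.29 to 1.25, adjusted p = 1.0 in edgeR) without the block. With the block it was 0.001 (95% interval −0.09 to 0.09, adjusted p = 0.994). The files give a single count per gene, so the forms cannot be told apart here. The windows around both starts, at chr3:89135892-89136191 and chr3:89136373-89136672 and 481 bases apart, are shown with AGATAA in capitals.
Pklr, upstream start: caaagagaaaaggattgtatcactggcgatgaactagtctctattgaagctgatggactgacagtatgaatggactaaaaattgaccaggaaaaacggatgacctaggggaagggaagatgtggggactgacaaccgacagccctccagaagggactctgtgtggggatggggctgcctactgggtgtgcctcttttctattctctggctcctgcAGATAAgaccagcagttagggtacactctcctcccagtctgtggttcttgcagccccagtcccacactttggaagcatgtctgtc
Pklr, downstream start: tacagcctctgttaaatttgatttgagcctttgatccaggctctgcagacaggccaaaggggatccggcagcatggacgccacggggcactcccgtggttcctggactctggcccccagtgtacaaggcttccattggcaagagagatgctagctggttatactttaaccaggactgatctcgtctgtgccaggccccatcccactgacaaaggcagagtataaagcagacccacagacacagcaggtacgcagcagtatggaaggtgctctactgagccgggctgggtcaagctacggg
The motif was found at 1 place in the upstream window and not in the downstream one. Outside Pklr, Pfkm was the only one of the 10 genes with a window that held it.

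**Figure D2:**
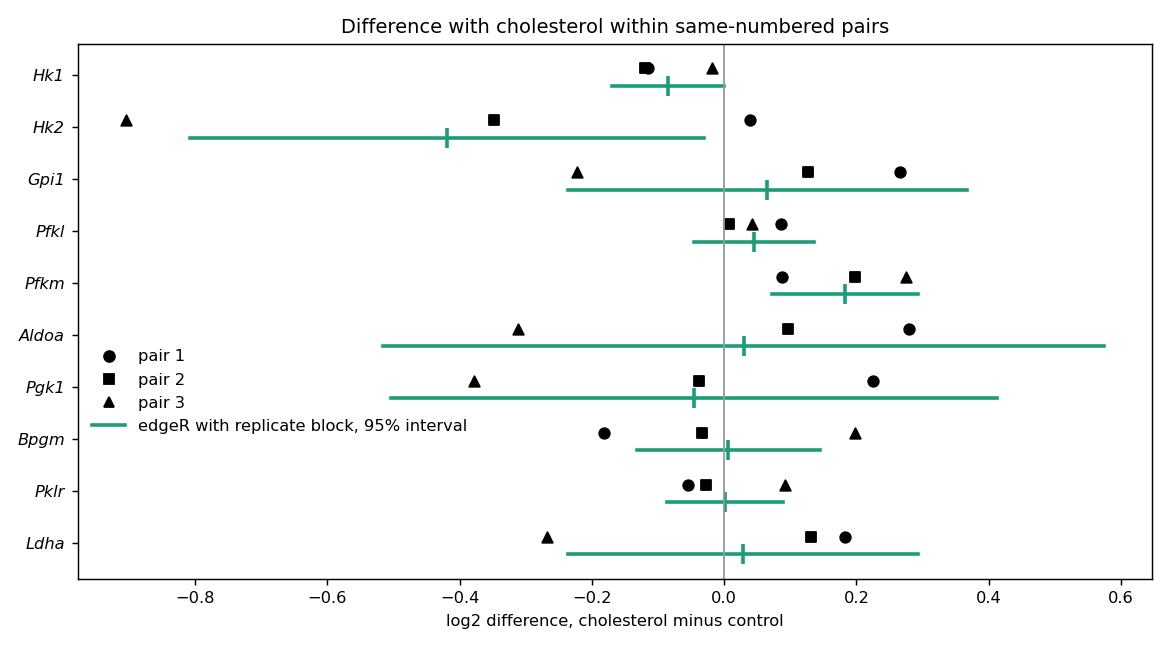
Log2 difference in CPM, cholesterol minus control (x axis), within pairs 1 to 3 (black symbols) for each of the 10 transcripts, above the edgeR estimate with the replicate number as a block and its 95% interval (green). Pfkm lies to the right of 0 in every pair, whereas for Gpi1, Aldoa, Pgk1 and Ldha pair 1 lies to the right and pair 3 to the left, at −0.22, −0.31, −0.38 and −0.27.

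Compared by treatment alone over 11277 genes, 0 of the 10 transcripts had an adjusted p under 0.05 in edgeR, where 0.00887% of all genes did, and 0 of the 10 had an unadjusted p under 0.05, where 2.63% of all genes did. DESeq2 also called 0 of them. The control and cholesterol samples did not separate for any of the 10, against 8.0% of all genes. With the replicate number as a block, 1 of the 10 was higher, where 1.65% of all genes were, and 0 were lower, where 5.20% of all genes were. The median log2 fold change of the 10 was 0.05 without the block and 0.02 with it, beside 0.01 and 0.01 for all genes tested. Leaving out 1 sample at a time moved the median without the block between −0.24, without cholesterol sample 1, and 0.32, without cholesterol sample 3.
Without both samples numbered 1, the model with the block called 1 of the 10 higher, Pfkm (1.03% of all genes), and 0 lower (6.12%), and without both numbered 2 it called 0 higher (0.583%) and 0 lower (1.99%). Without both samples numbered 3, it called 0 lower (4.64%) and 3 of the 10 higher (1.89%), namely Aldoa at a log2 fold change of 0.19 (adjusted p = 0.000653), Gpi1 at 0.20 (adjusted p = 0.00110) and Ldha at 0.16 (adjusted p = 0.0164). In pair 3 the same genes were lower with cholesterol by 0.31, 0.22 and 0.27 on the log2 scale. Each fit without a number rests on 2 pairs, so the spread of a gene was estimated largely from other genes. The fits did so to differing degrees, most without number 3, so their calls are not directly comparable. With 1 sample per treatment in each pair, a difference between pairs in the effect of cholesterol could not be tested. Being higher in pair 1 and lower in pair 3 was shared by 5 of the 10 transcripts and 19.7% of all genes. It was also shared by 7 of 8 hepatocyte markers, whose summed level with cholesterol was higher in pair 1 and lower in pairs 2 and 3. The block model called 2 of the 7 hepatocyte markers tested higher when both samples numbered 3 were left out, Afp (log2 fold change 0.22, adjusted p = 0.00393) and Trf (0.25, adjusted p = 0.0218). When those numbered 1 were left out, it called 3 of 8 lower, Alb (−0.45, adjusted p = 0.00319), Trf (−0.39, adjusted p = 0.00589) and Afp (−0.31, adjusted p = 0.0325). Their part in the differences of Gpi1, Aldoa, Pgk1 and Ldha was not tested.

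Differences between sample numbers were tested in the model with both terms, by edgeR's F test on the replicate number. They passed an adjusted p of 0.05 for 9 of the 10 transcripts, against 46.3% of all genes tested, so variation by number was widespread in these samples. The samples numbered 3 were lower than those numbered 1 for 8 of the 10 (22.9% of all genes were called in that direction) and higher for 1, Bpgm (23.4% of all genes). The median log2 difference of the 10 was −0.99, beside −0.01 for all genes tested, and the 5th percentile of all genes was −0.75. Ldha was lower by 3.26-fold (adjusted p = 0.00103), Pklr by 3.10-fold (adjusted p = 3.09e-14), Aldoa by 2.95-fold (adjusted p = 0.0338), Pgk1 by 2.57-fold (adjusted p = 0.0257) and Gpi1 by 2.24-fold (adjusted p = 0.00816). Pfkl was lower by 1.76-fold (adjusted p = 1.59e-09) and Pfkm by 1.55-fold (adjusted p = 6.16e-07), while Hk1 differed least of the 8 (log2 difference −0.26, adjusted p = 0.000792). Bpgm was 2.11-fold higher (adjusted p = 2.97e-07), and Hk2 did not pass (log2 difference 0.18, adjusted p = 0.066). Beside these differences, the adult globin genes took 17.9% and 16.2% of the counts in control and cholesterol sample 3 and 12.5% to 14.6% in the other 4 samples, and the summed neutrophil, macrophage, mast cell and hepatocyte markers given above were also highest in the samples numbered 3 of each group. Their part in these differences was not tested, and what sets the numbers apart cannot be told from the labels.

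**Figure D3:**
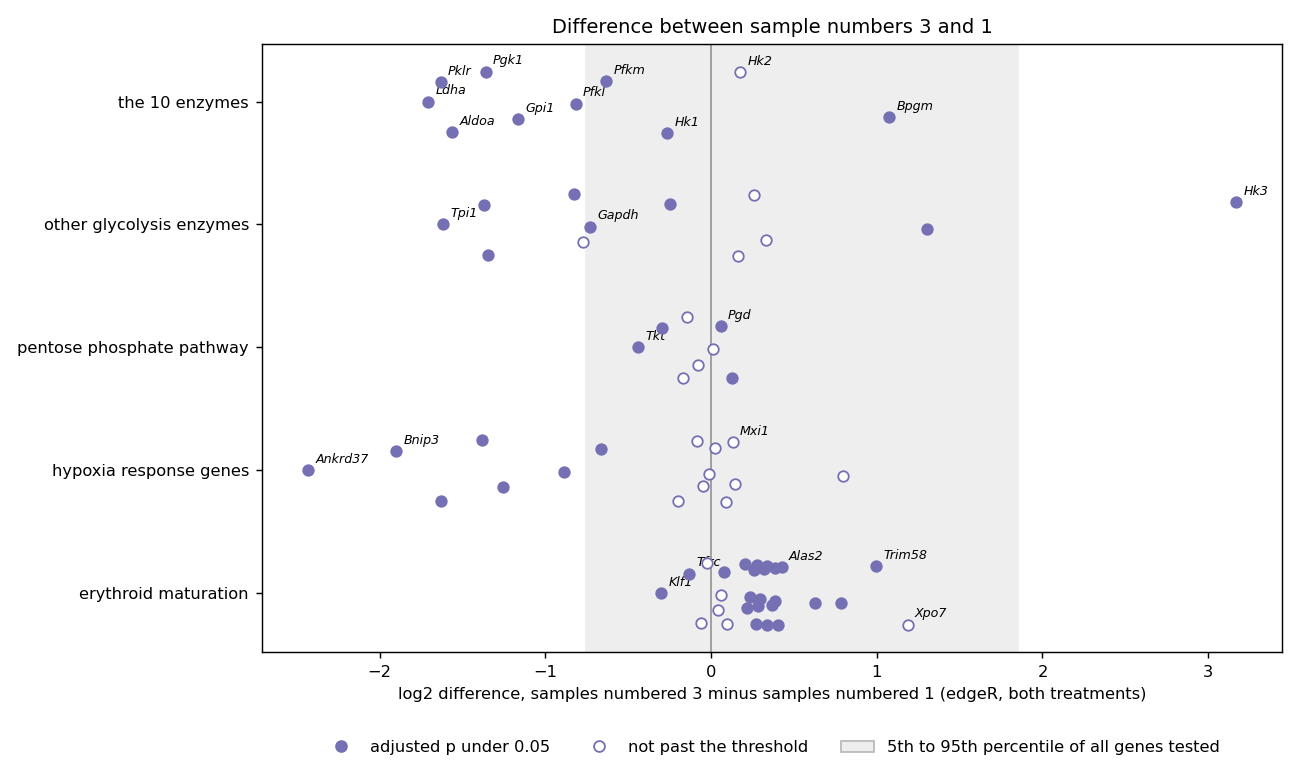
Log2 difference between the samples numbered 3 and those numbered 1 (x axis, edgeR, fitted over both treatments) for single genes (points) of 5 lists (rows, vertical position within a row has no meaning), filled where the F test on the replicate number passed an adjusted p of 0.05, over the 5th to 95th percentile of all genes tested (grey band). Ldha, Pklr, Aldoa, Pgk1, Gpi1 and Pfkl lie left of the band, as do Tpi1, Pgam1, Eno1, Pfkp and, not past the test, Pkm among the other glycolysis enzymes, and Bpgm is the one enzyme of the 10 well to the right of 0.

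Of 21 other glycolysis genes listed, 19 were in the files and 12 passed the filter on low counts. Among sample numbers 8 of the 12 differed, of which 6 were lower and 2 higher in the samples numbered 3 (46.3%, 22.9% and 23.4% of all genes). Gapdh, which makes NADH and 1,3-bisphosphoglycerate, had 2266, 2025 and 1509 CPM without cholesterol (samples 1 to 3) and 2388, 2092 and 1296 CPM with it. Triose phosphate isomerase Tpi1 had 342, 286 and 122 CPM and 365, 287 and 108 CPM, and the enolase Eno1 had 458, 391 and 212 CPM and 506, 407 and 168 CPM. Like Aldoa and Ldha, all of them were lowest in the samples numbered 3 (adjusted p = 1.01e-05, 5.06e-12 and 0.00858 in edgeR) and were higher with cholesterol in pair 1 and lower in pair 3. With the block, 0 of the 12 rose with cholesterol and 1, Hk3, fell (log2 fold change −1.03, adjusted p = 0.00557), a call lost without the samples numbered 2 (adjusted p = 0.0862) or 3 (adjusted p = 0.089). In the latter case 1 of the 11 tested was called higher, Pgam1 (log2 fold change 0.19, adjusted p = 0.0143), where 1.89% of all genes were. Hk3, a hexokinase of myeloid cells, had 1.01, 2.58 and 10.1 CPM without cholesterol (samples 1 to 3) and 0.641, 1.04 and 5.01 CPM with it, the same order as the neutrophil markers, whose part was not tested.

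Within enzyme families, the share of the summed FPKM that each paralog took gave a measure independent of library size. Hk1 took 96.5% to 99.3% of hexokinase FPKM, Aldoa 99.4% to 99.9% of aldolase FPKM and Ldha at least 99.4% of lactate dehydrogenase FPKM. Pfkl took 60.9% to 65.8%, Pfkm 28.4% to 33.2% and the platelet subunit Pfkp 5.83% to 8.03% of phosphofructokinase FPKM, so that the mixture of subunits varied little although Pfkl and Pfkm were both lower in the samples numbered 3. The share of Pfkm was 28.7% ± 0.404 in control and 30.9% ± 2.40 with cholesterol (SD, n = 3, exact two-sided permutation p = 0.4). The share of Pklr in pyruvate kinase FPKM was 86.9%, 88.3% and 69.6% without cholesterol (samples 1 to 3) and 85.6%, 89.9% and 85.5% with it, with Pkm, the form of most other tissues, taking the rest. Control sample 3 thus had the lowest share of the red cell gene. Pkm had 95.4, 62.1 and 86.2 CPM in the control samples and 102, 52.1 and 35.2 CPM in the cholesterol samples. Bpgm took 41.4%, 52.9% and 72.7% of the FPKM of its family without cholesterol (samples 1 to 3) and 34.4%, 49.5% and 80.1% with it, with the glycolytic phosphoglycerate mutase Pgam1 taking most of the rest. Over the 18 shares in families of more than 1 gene, among which those of Pklr and Pkm are one comparison, the exact permutation p lay between 0.3 and 1 (1 after adjustment), where 3 samples against 3 allow no p below 0.1. These tests took no account of the sample number. Within pairs, 1 of the 18 shares was higher with cholesterol in all 3 pairs, that of Aldoa, and 2 were lower, those of Hk3 and Pfkl. The share of Pfkl went from 64.2% to 63.6%, 65.8% to 62.9% and 62.8% to 60.9%.

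**Figure D4:**
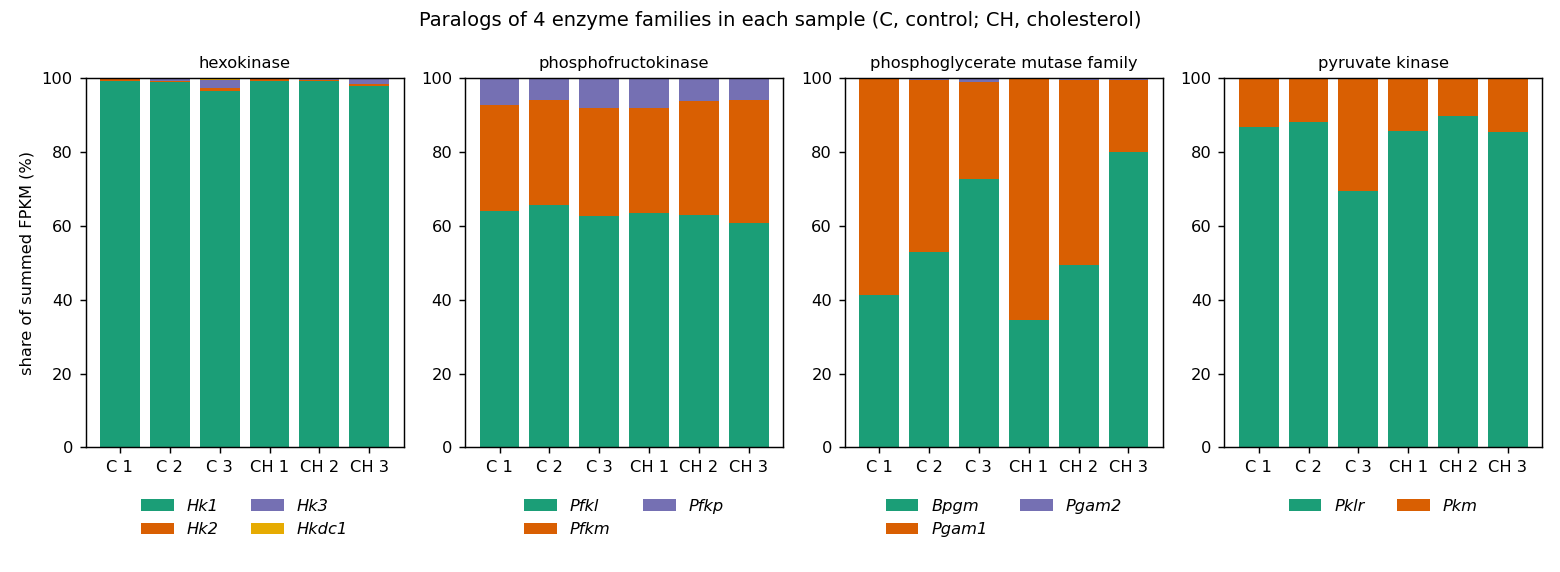
Share of the summed FPKM of an enzyme family (y axis, percent) taken by each paralog (colours) in control samples 1 to 3 (C) and cholesterol samples 1 to 3 (CH). Hk1 and Pfkl dominate their families in every sample, the share of Bpgm ranges from 34.4% to 80.1%, and that of Pklr is lowest in control sample 3.

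In the pentose phosphate pathway, which shares glucose-6-phosphate with glycolysis and supplies NADPH, 8 of 11 listed genes were tested. With the block, 4 of the 8 fell with cholesterol and 0 rose (5.20% and 1.65% of all genes), and without it 0 passed. Pgd, the second NADPH-producing enzyme of the pathway, had 159, 143 and 165 CPM without cholesterol (samples 1 to 3) and 130, 114 and 136 CPM with it, so that the groups did not overlap (log2 fold change −0.30, adjusted p = 0.000185 in edgeR with the block). Rpia, Tkt and Taldo1, enzymes of the non-oxidative arm, fell by 0.20, 0.19 and 0.15 on the log2 scale (adjusted p = 0.0182, 0.00629 and 0.0235). These 4 genes were lower in all 3 pairs, as were 20.1% of all genes, unlike Gpi1, Aldoa, Pgk1 and Ldha. Without both samples numbered 1, or without both numbered 2, only Pgd of the 4 kept its call. The neutrophil, macrophage and mast cell marker sums were also lower with cholesterol in each pair, and their part was not tested.
Of 24 listed genes of glucose and lactate transport and pyruvate entry, 20 were tested and 0 changed with cholesterol in either model, while 13 differed among sample numbers (46.3% of all genes). Of these 13, 10 were lower and 3 higher in the samples numbered 3 (22.9% and 23.4% of all genes were called in these directions). The block model without both samples numbered 3 called 2 of the 20 lower (4.64% of all genes), the amino acid transporter Slc16a10 (log2 fold change −0.20, adjusted p = 0.00164) and Pdp2, a phosphatase of the pyruvate dehydrogenase complex (−0.97, adjusted p = 3.22e-05), and without number 1 or 2 it called 0. Slc16a3, a lactate exporter, had 115, 97.1 and 45.0 CPM without cholesterol (samples 1 to 3) and 127, 94.2 and 31.4 CPM with it. Pdk1, a kinase that inhibits the pyruvate dehydrogenase complex, had 59.6, 54.2 and 23.2 CPM and 63.8, 54.4 and 24.0 CPM. Both were lowest in the samples numbered 3, whereas the glucose transporter Slc2a4 was highest there. Of 16 genes of the hypoxia response tested outside glycolysis, 7 differed among sample numbers, all of them lower in the samples numbered 3, and 9 did not pass (46.3% of all genes differed and 22.9% were lower). The 9 included Hif1a, Arnt, Vhl and Egln2, which belong to the oxygen-sensing machinery. Picked with their values in view, these genes do not stand for all of its members on the list, such as Egln1. Bnip3, a mitophagy receptor, had 40.2, 36.4 and 13.7 CPM without cholesterol (samples 1 to 3) and 48.8, 35.3 and 10.2 CPM with it. In all 3 pairs, 9 of the 16 were higher with cholesterol and 2 were lower (19.9% and 20.1% of all genes). With the block, 1 of the 16 rose with cholesterol, Ero1l, an oxidase of the endoplasmic reticulum (log2 fold change 0.16, adjusted p = 0.0422 in edgeR), a call lost without the samples numbered 1 (adjusted p = 0.217) or 2 (adjusted p = 0.315). Without those numbered 3, 2 of the 16 were called higher (1.89% of all genes), Ero1l (0.20, adjusted p = 0.00186) and the oxygen sensor Egln1 (0.24, adjusted p = 0.0311).
Of 28 erythroid maturation genes tested, 22 differed among sample numbers, and 20 of these were higher in the samples numbered 3 (46.3% and 23.4% of all genes), with a median log2 difference of 0.28 over all 28. Bpgm was called in the same direction. Trim58, a ubiquitin ligase of late erythroblasts, had 18.9, 21.6 and 33.0 CPM without cholesterol (samples 1 to 3) and 16.3, 21.7 and 37.3 CPM with it, the same order of samples within each group as Bpgm. The summed neutrophil, macrophage and mast cell markers given above had this order too. With cholesterol, 6 of the 28 fell in the model with the block and 0 rose (5.20% and 1.65% of all genes). These were Hba-a2 (log2 fold change −0.26, adjusted p = 0.000956 in edgeR), Slc25a37 (−0.18, adjusted p = 0.0086), Tfrc (−0.16, adjusted p = 0.0153), Hbb-bs (−0.17, adjusted p = 0.0223), Nfe2 (−0.15, adjusted p = 0.0373) and Alas2 (−0.14, adjusted p = 0.0382). Without the samples numbered 1, 2 or 3 the number that fell was 1, 2 and 8 (6.12%, 1.99% and 4.64% of all genes). These fits have the limit of 2 pairs given above, so kept and lost calls are not directly comparable. Hba-a2 kept its call in each case, whereas Alas2 (adjusted p = 0.372 and 0.062) and Slc25a37 (adjusted p = 0.154 and 0.0683) lost theirs without number 1 or 2, as did Tfrc and Nfe2, and Hbb-bs without number 1.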

How the data were processed

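RNA was sequenced from 3 control and 3 cholesterol-treated samples of sorted TER119+ erythroblasts, after poly(A) selection and with single-end reads. The authors deposited expected counts per gene, that is, estimated read numbers that need not be whole, and a table of normalized values without a stated unit. The latter were taken as the authors' FPKM, since count, total and value gave nearly 1 length per gene in all samples (median spread 0.398% over 1614 genes). The submitters' processing notes name HISAT2 2.0.4, Bowtie2 2.2.5, RSEM 1.2.12, DESeq2 1.4.5 and genome build GRCm38.p6, without saying what each was used for. The annotation and any filter are not given in the sources used here.

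Counts were rounded and tested with edgeR 4.0.16 in R 4.3.3 (filterByExpr with at least 10 counts in enough samples and 15 in total, TMM scaling, robust quasi-likelihood test, Benjamini-Hochberg adjustment over 11277 genes). The tests had been planned for whole counts. DESeq2 1.42.0 and limma 3.58.1 on log2(FPKM + 1) were alternatives. Standard errors and 95% intervals came from the F statistic, and CPM are TMM-scaled. Replicate numbers come from the sample titles. They were taken to pair the samples, because, after the group mean was taken off, the samples of pairs 1 to 3 correlated at 0.729, 0.348 and 0.825 over genes. Other number combinations averaged −0.294, a value that taking off the group mean itself lowers. A second model therefore held the number as a block. All libraries differed beyond sampling noise (chi-square per degree of freedom at least 8.78). Positions and start windows are those of RefSeq on GRCm38.p6, which all 10 genes matched. The genes and lists were chosen with earlier results of these data known. Named beside the 10 are their paralogs, the remaining main-line enzymes, and genes of the other lists that passed with or without the block, and cell type markers at 0. Pfkfb4, Slc16a3, Slc16a10, Pdp2, Pdk1, Slc2a4, Bnip3, Trim58, Afp, Trf, Alb, Egln1, Hif1a, Arnt, Vhl and Egln2 are named in addition, picked with their values in view. The code was tested on simulated data.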

Additional observations from a re-analysis of the deposited data

How the results depend on the processing

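By treatment alone edgeR called 1 gene higher and 0 lower with cholesterol. RLE scaling, scaling without globin genes and either other count filter left these counts and the 0 of the 10 enzymes within 1.5 times, whereas DESeq2 called 3 higher and 28 lower. In the model with the replicate block, the counts were 186 and 586 (1 of the 10 enzymes), 368 and 829 without a count filter (1 enzyme), 41 and 245 with DESeq2, and 14 and 35 with limma. With the block and without both samples numbered 1, 2 or 3, they were 118 and 703 (1 enzyme), 67 and 229 (0 enzymes) and 210 and 516 (3 enzymes). These fits rest on 2 pairs each, and their counts are not directly comparable. Without both samples numbered 3 and without the block, an alternative chosen after seeing the data, 2 genes were higher and 20 lower. Leaving out 1 sample at a time gave 1 gene higher, and 0 to 7 lower, 7 without control 3 and 1 without cholesterol 3. The cause was not tested. Over all 6 samples the block changed the call of Pfkm alone among the 10. Without both samples numbered 3 it changed those of Gpi1, Aldoa and Ldha, which had an adjusted p of 0.998 without it.

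Several small log2 fold changes changed sign. That of Pgk1 was −0.045 with the block, −0.064 with DESeq2 and the block, −0.041 with the block and no filter, −0.031 with limma with or without the block (−0.033 at the lower pseudocount), and −0.19 and −0.051 with the block without number 1 or 2. That of Pklr was 0.0011 with the block, 0.0057 with the block and no filter, 0.033 with limma at either pseudocount and with the block, and 0.033 and 0.017 with the block without number 1 or 2. Bpgm gave −0.0025 with DESeq2 and the block and −0.11 with the block without number 3. With the block, Gpi1 (−0.039), Aldoa (−0.099) and Ldha (−0.054) turned without number 1, and Aldoa (−0.0068) and Ldha (−0.027) without number 2. Leaving out 1 sample gave −0.16 to −0.0050 for Hk1, −0.62 to −0.14 for Hk2, −0.21 to 0.43 for Gpi1, −0.16 to 0.26 for Pfkl, −0.00870 to 0.34 for Pfkm, −0.27 to 0.50 for Aldoa, −0.34 to 0.37 for Pgk1, −0.38 to 0.33 for Bpgm, −0.37 to 0.36 for Pklr and −0.31 to 0.48 for Ldha. The differences in paralog share, in percentage points, ranged, when 1 sample was left out, from −0.244 to 1.11 for Hk1, −0.233 to −0.00199 for Hk2, −2.49 to −0.984 for Pfkl, 0.951 (without cholesterol 3) to 3.35 (without cholesterol 1) for Pfkm, −0.0692 to 0.206 for Aldoa, −13.7 to 9.12 for Bpgm, −0.571 to 8.79 for Pklr and −0.0852 to 0.176 for Ldha. The test on sample numbers called 9 of the 10 enzymes under RLE scaling, without the filter and in limma. With 3 samples a group and a wide spread between numbers, small changes with cholesterol were not detectable without the block, and intervals cover these samples only.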

Other observations

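Among regulators of glycolysis, 9 of 11 listed genes were tested and 0 passed with cholesterol in either edgeR model. The one nearest to the threshold was Pfkfb4, which makes the activator of phosphofructokinase. Its CPM were 3.24, 4.16 and 4.0 without cholesterol (samples 1 to 3) and 2.56, 2.17 and 2.4 with it, so that the groups did not overlap (log2 fold change −0.67, adjusted p = 1.0 without the block and 0.0553 with it). The model with the block and without both samples numbered 1 called it lower (log2 fold change −0.83, adjusted p = 0.0337), 1 of 10 regulators tested there (6.12% of all genes), but not without number 2 (adjusted p = 0.439) or 3 (adjusted p = 0.122).

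Of 11 genes of erythroid progenitors tested, 4 fell with cholesterol in the model with the block and 0 rose (5.20% and 1.65% of all genes). Gata2 had 6.22, 5.6 and 12.3 CPM without cholesterol (samples 1 to 3) and 2.37, 2.57 and 2.76 CPM with it (log2 fold change −1.59, adjusted p = 6.97e-05 in edgeR with the block). Spi1, Cd34 and Kit fell by 1.10, 1.33 and 1.02 on the log2 scale (adjusted p = 0.000135, 0.0088 and 0.0255). Gata2 and Spi1 kept their calls without both samples of any number, whereas 2 of the 11 were left without number 2 or 3, where Cd34 (adjusted p = 0.124 and 0.145) and Kit (adjusted p = 0.19 and 0.171) lost theirs. These genes are also expressed in myeloid or mast cells, whose marker sums were lower with cholesterol in each pair, and their part was not tested.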
